A study of Mus musculus with 12 samples.

Results

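The wells described here are basal keratinocyte wells of mouse back-skin epidermis in which a set of 6 basal genes, Igfbp3, Smoc2, Il1r2, Slco2a1, Thbs2 and Fcgbp, made up less than 0.3% of the ribosome footprint counts. They numbered 137 of the 1906 wells with at least 100 counts, or 7.19%. A well entered if Krt1, Krt10, Krt5 and Krt14 together gave at least 5 counts and Krt1 plus Krt10 gave less than 10% of these. It was left out if 9 immediate early genes (Fos, Jun, Junb, Egr1, Ier2, Atf3, Nr4a1, Zfp36 and Btg2) reached 2% of its counts. It was also left out if Krt79, Krt17 and Cst6 reached 1%, or if Postn, Cd34, Ltbp2, Il31ra and Myoc reached 0.5%. The wells were thus selected on their counts of these genes, and differences in them are given as a description with no test.

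The wells came from 3 old and 3 young C57BL/6 females. Old mice were aged 22 to 26 months and are named by postnatal day P662, P722 and P758. Young mice were aged 56 to 60 days and are named P57, P59 and P60. All 6 mice received cycloheximide, which arrests ribosomes on mRNA, through a tail vein shortly before death. Live epidermal cells freed with trypsin were sorted singly into plates, and the mRNA fragments protected by ribosomes were sequenced. A count is therefore a sequenced footprint on a gene, a measure of translation that depends on both mRNA level and ribosome load, and it grows with coding length. Levels are given as counts per 1000000 summed footprints (CPM), not divided by coding length, so genes are not compared with each other. The plates of a given age and day were taken as 1 animal, because the labels name a day and not a mouse. Plates from the nuclease test and from the sort of cells without Sca-1 were not analysed here.

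The basal layer is the dividing layer of the epidermis. Its keratinocytes hold to the basement membrane through hemidesmosomes, built on integrin alpha6 beta4, plectin, dystonin and collagen XVII, and they contain filaments of keratins 5 and 14. Cells that leave the layer switch to keratins 1 and 10. Hair follicles and sebaceous glands are continuous with this layer, and their outer cells also carry keratins 5 and 14, so a gate on keratins admits cells of these appendages.

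P758 and P60 held 128 of the 137 wells (93.4%). There were 4 wells in P662, 1 in P722 and 55 in P758, against 0 in P57, 4 in P59 and 73 in P60. The summed footprints were 1496 counts in P662, 133 in P722 and 43360 in P758, against 1425 in P59 and 117344 in P60. One count was thus worth 23.1 CPM in P758 and 8.52 CPM in P60, but 668 CPM in P662 and 702 CPM in P59. The median well had 668 counts in P758 and 1115 in P60. The 10 deepest wells gave 31.6% of all counts. Plates reused the same well indices (383 of 384 occurred on more than 1 plate). Wells with the same index on different plates correlated no more than others (median r 0.188 against 0.186 over log-scaled counts of 1000 genes, a description), and no wells were identical.

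As a share of all wells with at least 100 counts, the wells low in the set made up 2.01%, 2.63% and 8.77% in P662, P722 and P758, against 0%, 8.33% and 7.44% in P57, P59 and P60. The old and young ranges overlapped. The mean was 4.47 ± 3.74% in old mice and 5.26 ± 4.58% in young mice (SD, n = 3 each), and a two-sided exact permutation test over animals gave p = 1, where the smallest p that this design allows is 0.1. The 0 of P57 rested on 13 wells and allows a share of up to 23.1%. The 95% exact binomial interval was 6.68% to 11.3% in P758 and 5.88% to 9.27% in P60; such intervals cover counting error only.

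The 995 wells that passed the keratin gate were assigned in order. First 90 wells over a hair follicle limit were set aside, then 143 others high in immediate early genes. Of the remaining 762, 625 were at or above 0.3% for the 6-gene set (called Igfbp3-high here) and 137 were below it, 13.8% of the 995. Before any were set aside, 765 of the 995 were at or above 0.3%. Among the basal wells of P662, P722 and P758, 8.33%, 5.88% and 17.6% were low in the set, against 0%, 26.7% and 12.2% in P57, P59 and P60. The mean was 10.6 ± 6.16% in old mice and 13.0 ± 13.3% in young mice (SD, n = 3 each, exact permutation p = 0.8, adjusted p = 0.9 over 4 shares). Igfbp3-high wells made up 39.9 ± 22.8% of basal wells in old mice and 58.7 ± 22.5% in young mice (exact permutation p = 0.4, adjusted p = 0.8). Immediate early high wells made up 33.6 ± 30.8% in old mice and 12.1 ± 18.5% in young mice (exact permutation p = 0.4, adjusted p = 0.8). Their share was 28.1% in P758 and 2.84% in P60. The number of wells that the immediate early limit removed before the set was applied thus differed between these animals.

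**Figure D1:**
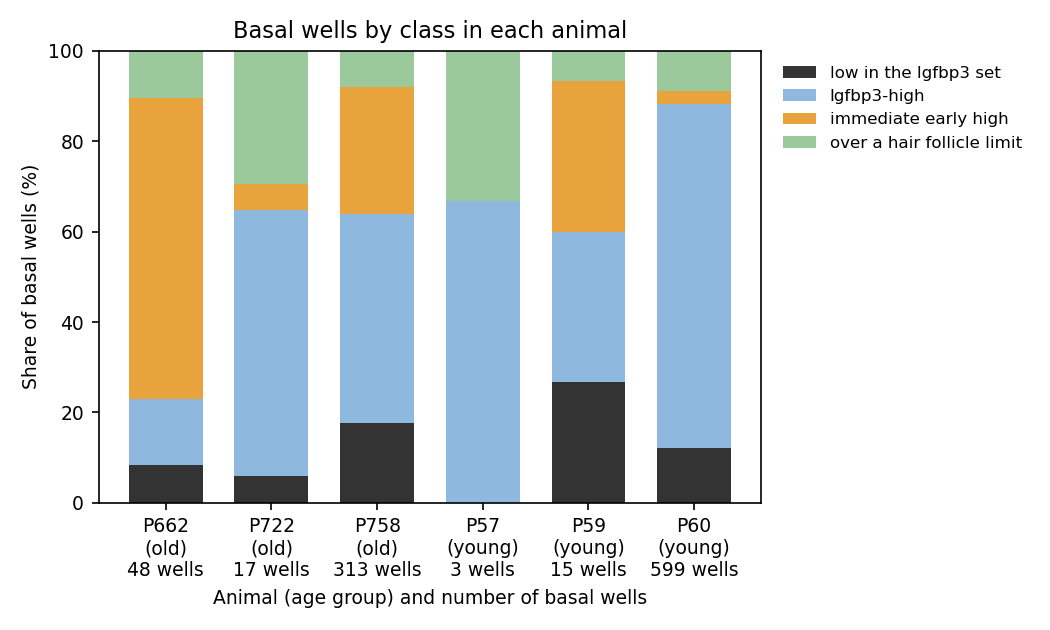
Share of basal wells (percent, vertical axis) in each of 4 classes for the 3 old animals (left) and the 3 young animals (right), with the number of basal wells under each bar. Wells low in the Igfbp3 set (dark) make up 17.6% in P758 and 12.2% in P60, and the other 4 animals rest on 48 wells or fewer.

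The limit of 0.3% cut through a distribution with wells on both sides of it. Of the 137 wells, 62 had no count of any of the 6 genes, and 39 lay between 0.2% and 0.3%. Just outside, 41 Igfbp3-high wells lay between 0.3% and 0.4%. The highest well inside was at 0.297% and the lowest outside at 0.303%, while the median Igfbp3-high well was at 1.08%. The 95% exact binomial interval of the set's share included 0.3% in 124 of the 137 wells and in 199 of the 625 Igfbp3-high wells. In 20 of the 137 wells the total was under 334 counts, where a single count of the set would have placed the well outside.

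Fcgbp, which encodes a secreted IgG Fc-binding mucin-like protein, carried most of the gate. In Igfbp3-high wells it gave 78.5% of the set's 3212 counts in P758 and 77.4% of its 25358 counts in P60. In the wells low in the set it gave 33 of 59 counts in P758 and 78 of 141 in P60. Igfbp3 itself, an insulin-like growth factor binding protein, had 3 counts in P758 and 7 in P60. Smoc2, a secreted matricellular calcium-binding protein, had 10 counts in P758 and 27 in P60.

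**Figure D2:**
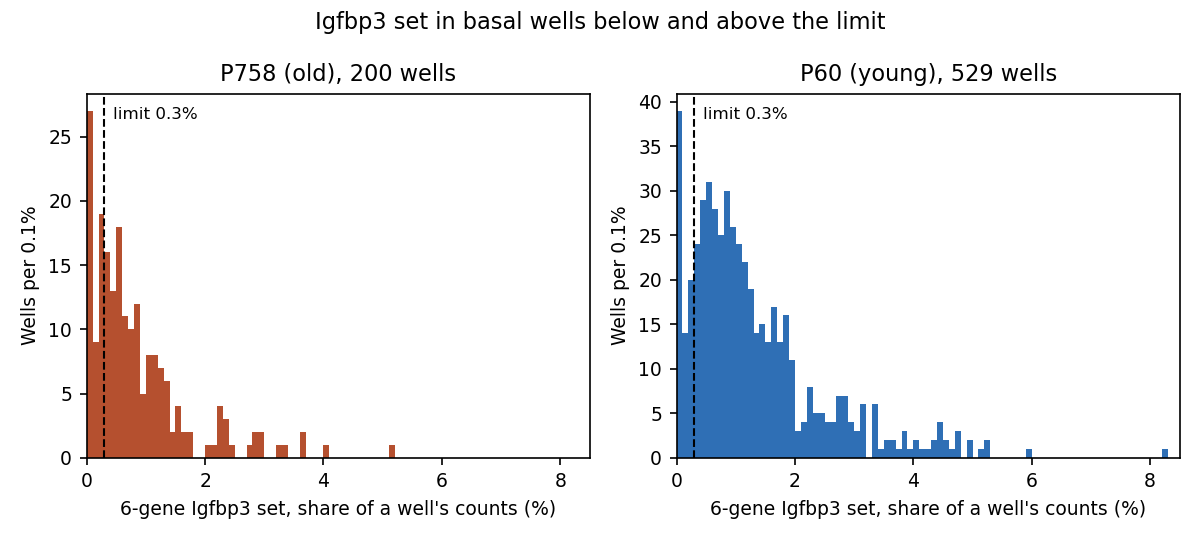
Histograms of the 6-gene set's share of a well's counts (percent) in basal wells of P758 (old, left) and P60 (young, right) that passed the other limits, in steps of 0.1%. The dashed line is the limit of 0.3%; wells to its left are those described here, and the counts run across the line with no gap.

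The basal label was checked against Krt5, Krt14, Krt15 and Col17a1. To compare depths, wells with at least 500 counts were thinned at random to 500, which kept 34 of 55 wells in P758 and 62 of 73 in P60. Krt5, the type II keratin of basal cells, then had a count in 97.1% of wells in P758 and 90.3% in P60, against 20.9% and 26.9% of spinous wells (those with Krt1 and Krt10 at 90% or more of the 4 keratins). Krt14, its type I partner, had a count in 97.1% and 79.0% of wells, against 3.30% and 6.73% of spinous wells. Both keratins entered the gate, so their presence was required in part. Col17a1, the hemidesmosomal collagen XVII, was not used for the gate. It had a count in 91.2% and 91.9% of wells, against 61.5% and 60.6% of spinous wells. Krt15, a keratin of basal and follicle stem cells, had a count in 70.6% and 83.9%, against 48.4% and 73.1% of spinous wells. Without thinning, Col17a1 had a count in 90.9% and 93.2% of wells, and in 69.6% and 79.8% of spinous wells. Krt15 was thus also counted in most spinous wells of P60.

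Marker levels were lower than in Igfbp3-high wells. The 4 basal markers together gave 4.69% of counts in P758 and 3.82% in P60, against 7.36% and 7.91% in the Igfbp3-high wells and 0.594% and 1.10% in spinous wells. Krt5 was at 18888 CPM in P758 and 14487 in P60, against 32484 and 34084 in Igfbp3-high wells. Krt15 was at 5028 CPM in P758 and 11726 in P60, against 12000 and 22259. Col17a1 was at 8764 and 5761 CPM, against 11145 and 10010. Dystonin (Dst), the cytolinker of the hemidesmosome, differed less, at 4912 and 5369 CPM against 6077 and 5479. Integrin beta4 (Itgb4) was at 2076 and 1790 CPM against 2499 and 2409. Trp63, the transcription factor of the basal lineage, was at 946 and 1491 CPM against 1552 and 1818. All 4 basal markers were therefore present, at lower levels than in the basal wells outside the limit. The 11 wells with at least 3 counts of Akr1c18, described below, held 30203 of the 163758 counts of the low-set wells. Without them the 4 markers gave 5.03% in P758 and 4.58% in P60, still below the Igfbp3-high values.

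Other cell types were checked as summed marker lists. All 6 endothelial and blood markers were at 0 in both animals. The 6 melanocyte markers had 0 counts in P758 and 6 in P60, all of Mitf (51.1 CPM in P60, against 14.7 in its Igfbp3-high wells), and the defining genes Dct, Pmel and Tyrp1 were at 0. The 6 Merkel cell markers had 0 counts in P758 and 1 in P60, of Krt18, with Krt20, Atoh1 and Piezo2 at 0. The 7 Langerhans markers had 6 counts in P758 (0.0138%) and 0 in P60, against 0.0101% and 0.0412% in Igfbp3-high wells. The 6 fibroblast markers had 5 and 7 counts (0.0115% and 0.00597%, against 0.00395% and 0.00220%), and the 7 inner root sheath and hair shaft markers 5 and 3 (0.0115% and 0.00256%, against 0.00438% and 0.00228%). The 8 T cell markers were at 0 in P60 and gave 0.0692% of counts in P758, all from 1 well in which they reached 1.67% of 1799 counts. The 8 sebaceous markers gave 0.138% in P758 and 0.216% in P60, against 0.0513% and 0.0492% in Igfbp3-high wells. In P758 they gave 0.0777% on plate Old2 and 0.193% on Old4. The 8 upper hair follicle genes that the gate did not use gave 0.233% and 0.159%, against 0.0601% and 0.0605%. In P758 this list gave 0.126% on Old2 and 0.329% on Old4, and 48 of its 101 counts were Krt6a in 1 well of Old4. The 8 outer bulge genes that it did not use gave 0.0830% and 0.135%, against 0.0355% and 0.0361%. Krt79, an upper follicle keratin that the gate limited but did not remove, had a count in 14.7% and 12.9% of thinned wells, against 3.17% and 1.67% of Igfbp3-high wells. Sox9, a transcription factor of the outer root sheath and bulge, had a count in 5.88% and 11.3% against 2.38% and 1.67%. These appendage markers move with the low-set wells, and their part in the differences below was not tested.

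A minority of the wells translated Akr1c18, which encodes the mouse 20-alpha-hydroxysteroid dehydrogenase. It had at least 3 counts in 2 wells of P758 and in 1 well of P59 and 8 of P60, 11 of the 137 in all. No Igfbp3-high, immediate early high, transitional or spinous well reached 3 counts. Of all 1906 wells, 22 did. Those not among the 11 were in none of these classes, which leave out wells over a hair follicle limit. They were not described here. In P758 the 2 wells held 57 and 4 Akr1c18 counts. In P60 the 8 wells held 85, 79, 60, 26, 16, 11, 5 and 5. This split was made after the values were seen and carries no test.

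A few further genes, also chosen after their values were seen, are given for the 11 wells. Apoe, the lipid-carrier apolipoprotein E, was at 48207 CPM in them and 15769 CPM in the other 126 wells. Scd1, the stearoyl-CoA desaturase, was at 1689 CPM against 97.3. Mgst1, microsomal glutathione transferase, was at 2053 against 30.0 CPM. Cers4, a ceramide synthase, was at 2748 against 52.4 CPM. The transmembrane glycoprotein embigin (Emb) was at 2384 against 165 CPM. The basal genes were at lower levels in the same wells. Krt5 was at 2417 CPM against 18711, Krt15 at 2119 against 11598 and Col17a1 at 1755 against 7615, whereas Krt14 was at 5331 against 9232. A single P60 well gave 40 of the 73 Krt5 and 51 of the 64 Krt15 counts, and had 0 of Scd1 and Cers4. In the other 10 wells Krt5 was at 1188 CPM and Krt15 at 468. The 11 wells were deep, with a median of 2157 counts against 755 in the other 126. Without them, the sebaceous list was at 0.0628% of counts in P758 and 0.0525% in P60, near the Igfbp3-high values above. The outer bulge list was at 0.0829% and 0.158% without them, and the upper follicle list at 0.254% and 0.178%, where the P758 value still holds the well with 48 Krt6a counts.

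By the variance of its count over the mean, Apoe was the most variable gene outside the gate. It gave 1.35% of all footprints in P758 and 2.49% in P60. In wells thinned to 500 counts its variance over mean was 16.7 in P758 and 11.5 in P60. The median was 1.11 and 1.22 over the 229 genes with a mean of at least 0.2 counts in both animals. Apoe had a mean of 5.5 and 7.24 counts in these wells, so this contrast is not matched for level. The ranking itself was over all genes outside the gate. The share of Apoe ran from 0 to 6.73% of a well's counts in P758 (median 0.50%) and from 0 to 7.0% in P60 (median 0.436%). It was at least 1% in 14 of 55 wells in P758 and in 27 of 73 in P60. All 12 P60 wells with a count of Mgst1 were among the 20 wells highest in Apoe. High Apoe was not confined to the Akr1c18 wells. The deepest well, of P60, had 10516 counts with 543 of Apoe, 290 of Krt5, 277 of Krt15 and 0 of Akr1c18.

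Krt15 itself varied among the wells, with a variance over mean of 3.06 in P758 and 7.52 in P60. Its share was from 0 to 2.88% in P758, with 10 of 55 wells at 0, and from 0 to 6.25% in P60, with 6 of 73 at 0. Krt5 ran from 0.0667% to 7.96% in P758 and from 0 to 4.74% in P60, with a variance over mean of 3.14 and 3.6. Col17a1 was more even, at 1.91 and 1.96.

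Replication-dependent histones formed the other variable group. They are made in S phase and encode the proteins that package new DNA. Of the 12 genes with the highest ratio in both animals, 9 were histones, led by the linker histone H1f3, at 9.13 in P758 and 6.51 in P60. H1f3 was found in 2 of 34 thinned wells in P758 and in 11 of 62 in P60, with up to 10 and 11 of the 500 counts. Histone genes have near-identical copies, and the counting could split reads among them. The 9 genes together had at least 5 of 500 counts in 1 of 34 wells in P758 and in 5 of 62 in P60, or 2.94% and 8.06%. In Igfbp3-high wells the same was true of 3.97% and 6.21%. These genes were picked for their spread in the low-set wells, so the shares are a description. In spinous wells it was true of 0 of 91 and 0 of 104, which allow shares of up to 3.30% and 2.88%.

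**Figure D3:**
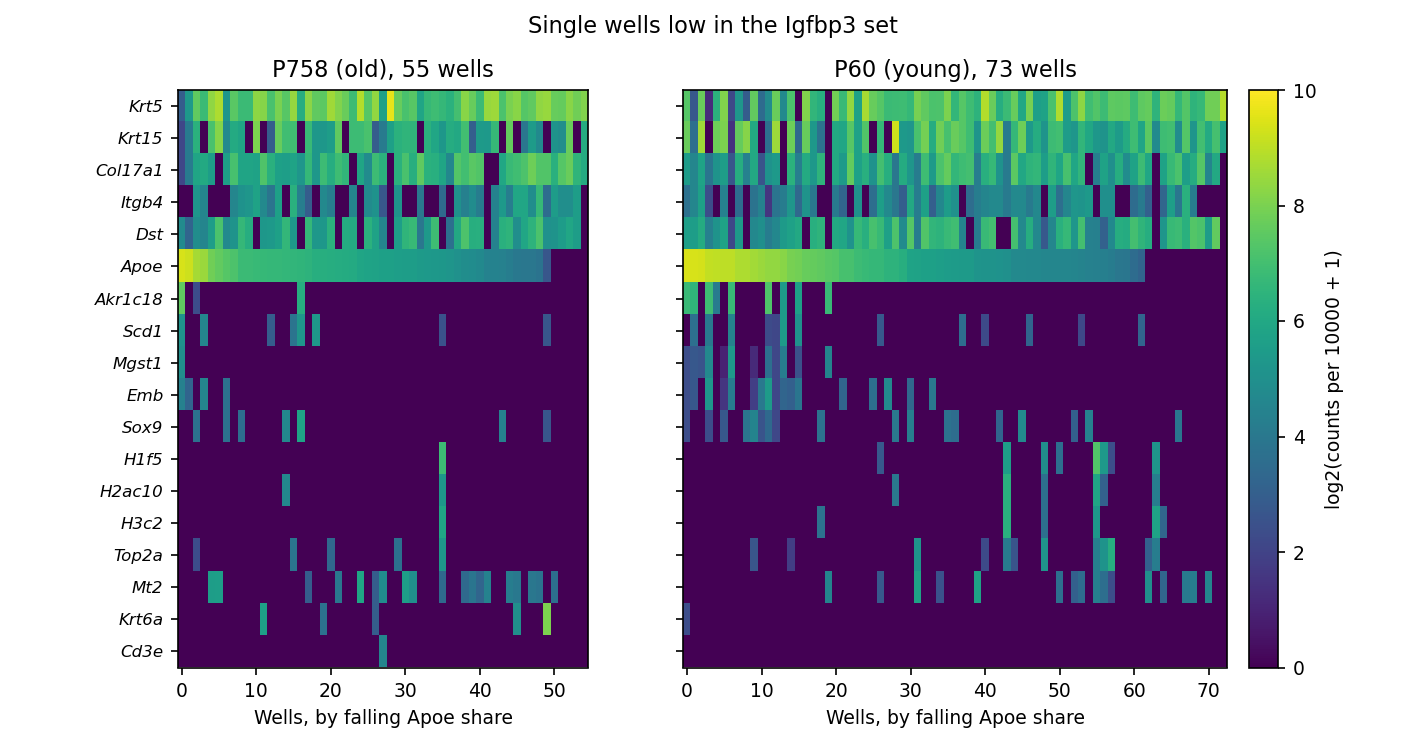
Each column is a well of P758 (old, left, 55 wells) or P60 (young, right, 73 wells), ordered by falling Apoe share, and each row a gene; colour is log2 of counts per 10000 plus 1. In P60 the wells with at least 3 Akr1c18 counts and those with a count of Mgst1 are among the 20 highest in Apoe, and the histones H1f5, H2ac10 and H3c2 coincide in a few wells.

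The comparisons with other well classes are a description, since the gate separated those classes. They are given for P758 and P60 apart. Of the 4290 genes outside the gate with at least 50 CPM in the higher class in both animals, 109 (2.54%) were at least 2-fold higher in low-set than in Igfbp3-high wells in both animals, and 61 (1.42%) at least 2-fold lower. Fold changes are on the scale of log2(CPM + 20), which understates those of low genes.

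The genes with the highest ratio over the Igfbp3-high wells included Akr1c18 and several described in its wells. Akr1c18 had 62 counts in P758 and 288 in P60 (1430 and 2454 CPM), against 0 and 1 count in the Igfbp3-high wells. Mgst1 was at 208 and 486 CPM against 8.77 and 11.7, a log2 ratio of 2.98 in P758 and 3.99 in P60. Cers4 was at 208 and 690 CPM against 26.3 and 13.2, and Emb at 208 and 716 CPM against 17.5 and 56.5. Ptprk, a receptor-type tyrosine phosphatase, was at 115 and 290 CPM against 4.38 and 11.7. Avpr1a, a vasopressin receptor, had 3 counts in P758 and 30 in P60 against 0 in the Igfbp3-high wells of both. In P758 these genes other than Akr1c18 had under 20 counts each. The Old4 well of 3000 counts gave 57 of the 62 Akr1c18 counts of P758, all 9 of Mgst1, 6 of the 9 of Cers4 and 6 of the 9 of Emb, so 1 well gave most P758 counts of these 4 genes.

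The 8 genes with the lowest mean log2 ratio against Igfbp3-high wells, among the 4290, were as follows. The classes compared differ in depth. Igfbp3-high wells held 228081 counts in P758 and 1362634 in P60, against 43360 and 117344 in the low-set wells. Plk1, a mitotic kinase, had 0 counts in P758 and 2 in P60, against 24 and 154 in the Igfbp3-high wells. In CPM this was 0 and 17.0 against 105 and 113. Cenpe, the kinetochore motor, had 0 and 12 counts against 36 and 298, or 0 and 102 CPM against 158 and 219. Its log2 ratio in P60 was -0.97, so it is not among the 61 genes at least 2-fold lower in both animals. Ncaph, a condensin subunit, had 0 and 1 count against 12 and 159, or 0 and 8.52 CPM against 52.6 and 117. Col12a1, a fibril-associated collagen, was at 46.1 and 8.52 CPM against 193 and 139. Chit1, a chitinase, was at 92.3 and 51.1 CPM against 390 and 303, a log2 ratio of -1.87 and -2.18. Cpxm2, a carboxypeptidase-like secreted protein, was at 23.1 and 85.2 CPM against 311 and 278. The tumor necrosis factor receptor family member Tnfrsf18 had 0 and 9 counts against 32 and 306, or 0 and 76.7 CPM against 140 and 225. The histone H2ac13 had 1 and 4 counts against 50 and 196, or 23.1 and 34.1 CPM against 219 and 144.

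**Figure D4:**
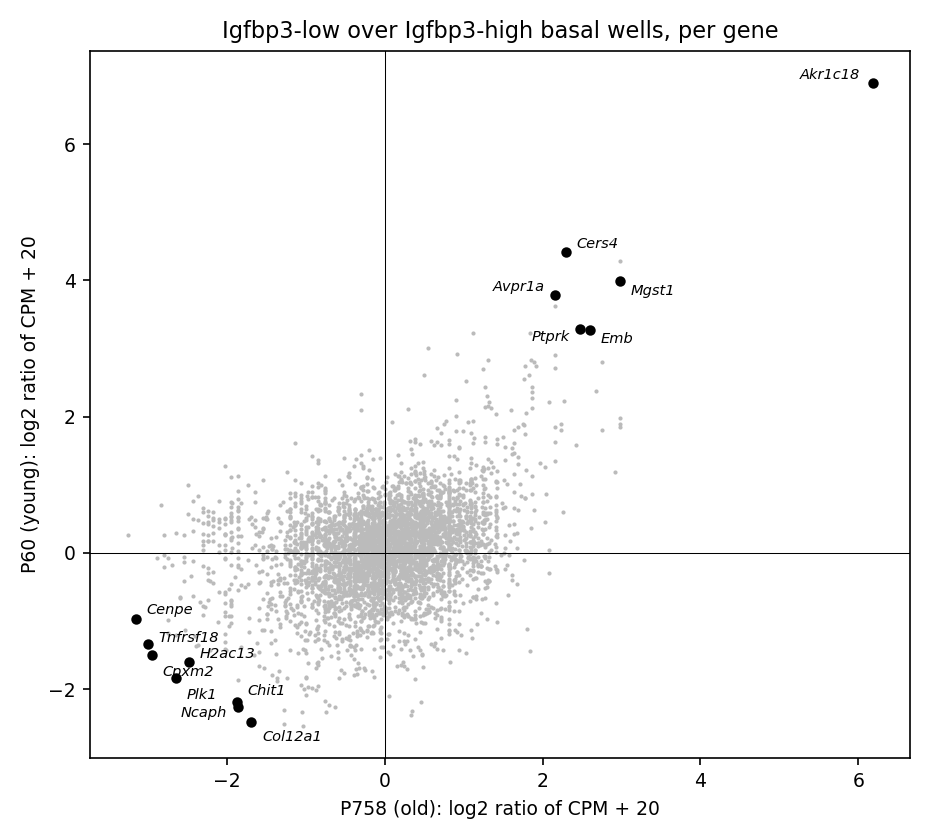
Log2 ratio of CPM plus 20, wells low in the Igfbp3 set over Igfbp3-high wells, for each of 4290 genes in P758 (old, horizontal axis) and P60 (young, vertical axis). Named points are genes of the highest and lowest mean ratio; Akr1c18 stands apart at the upper right, and Plk1, Cenpe and Ncaph lie at the lower left.

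The 24 listed S phase and mitosis genes gave 0.277% of counts in P758 and 0.355% in P60, against 0.538% and 0.754% in Igfbp3-high wells, 0.216% and 0.0688% in transitional wells and 0.0491% and 0.0435% in spinous wells. Mki67, the proliferation antigen, was at 530 and 605 CPM against 921 and 1501 in Igfbp3-high wells. Top2a, the topoisomerase of dividing cells, was at 277 and 392 CPM against 776 and 1409. The P758 values rest on plate Old4, where Mki67 was at 966 CPM and Top2a at 527, against 48.6 and 0 on Old2. A single Old4 well of 2080 counts gave 8 of the 12 Top2a counts of P758. The list gave 0.378% on Old4 and 0.165% on Old2. The share of thinned wells with a count ran the other way, at 11.8% and 16.1% for Mki67 against 7.94% and 12.2%, so no order is read from it. The 9 hemidesmosome and laminin-332 genes gave 2.52% and 2.13% of counts against 3.22% and 2.90%. The 13 mitochondrially encoded genes gave 0.597% and 0.585% against 0.478% and 0.280%. In P758 they gave 0.408% on Old2, below its Igfbp3-high value, and 0.768% on Old4. Perlecan (Hspg2), a basement membrane proteoglycan, was at 484 and 409 CPM against 254 and 141.

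Against transitional wells, with both keratin pairs at 10% to 90%, 209 of 4384 genes (4.77%) were at least 2-fold higher in both animals and 129 (2.94%) at least 2-fold lower. Besides the Akr1c18 group, Acsl4, an acyl-CoA synthetase, was at 323 and 767 CPM against 8.90 and 16. The histones H1f5 and H2bc3 were also among the 8 highest. All 24 H1f5 counts of P758 came from 1 Old4 well of 2080 counts, and H2bc3 was found in 1 of 34 thinned wells of P758. Krt77, a suprabasal keratin, was at 646 and 205 CPM against 5411 and 8934, and Krtdap, a secreted differentiation peptide, at 115 and 8.52 against 988 and 708. Dsg1a, desmoglein 1, was at 185 and 136 CPM against 1549 and 1520. Mt4, the metallothionein of stratified epithelium, and Npl, a sialic acid lyase, had 0 counts in the low-set wells of both animals, against 78 and 46 counts of Mt4 in transitional wells.

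Against spinous wells, 451 of 4280 genes (10.5%) were at least 2-fold higher in both animals and 257 (6%) at least 2-fold lower. Jag2, a Notch ligand of the basal layer, was at 1153 and 1023 CPM, against 0 and 4 counts in spinous wells. Agrin (Agrn), a basement membrane proteoglycan, was at 899 and 1227 CPM against 11.7 and 10.0, and the laminin chain Lama5 had 36 and 92 counts against 5 and 8. Integrin alpha3 (Itga3) had 25 and 35 counts against 0 in both. S100a6, a calcium-binding protein, was at 1038 and 639 CPM against 11.7 and 5.00. Krt77 was at 646 and 205 CPM against 40508 and 45269, and Spink5, a protease inhibitor of the upper epidermis, had 0 and 1 count in low-set wells against 533 and 363.

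The age comparison within the wells could not be tested as planned. It required animals with at least 5 wells, and P758 and P60 alone had them, so it sets 1 old animal against 1 young animal and gives values with no p. Sums per plate (Old2 and Old4 of P758, Young1, Young3 and Young9 of P60) show the spread between plates of the same animal, not between animals. Of the 211 genes outside the gate with a mean of at least 500 CPM, 13 (6.16%) were at least 2-fold higher in P758 and 10 (4.74%) at least 2-fold lower, and the median log2 ratio was -0.02. In 63 of the 211 (29.9%) the plates of P758 and P60 did not overlap, in 10 of the 13 and 8 of the 10. With TMM scaling the counts were 11 higher and 19 lower, and without plate Old4 they were 25 higher and 21 lower. For this comparison deeper wells were thinned to 500 counts and wells under 500 were kept whole, so no well was left out. With wells thinned in this way 21 genes were 2-fold apart, of which 10 were among the 23. Without plate Old2 29 genes were 2-fold apart, again with 10 among the 23. The thinned ratios between P758 and P60 given below are of these sums.

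The basal keratins differed in opposite directions. Krt14 was at 12924 and 15365 CPM on the plates of P758, against 7647, 5144 and 5373 on those of P60. The plates did not overlap. The sum was 14207 CPM in P758 (95% Poisson interval 13107 to 15374) and 6238 in P60 (5794 to 6707), a log2 ratio of 1.18. Krt14 is part of the gate's keratin count, of which at least 5 counts were required. That is a larger share of a shallower well, and the median well had 668 counts in P758 and 1115 in P60. The part of this in the difference was not tested. With wells thinned to 500 counts the log2 ratio was 1.30. The gate was not applied again after thinning, so this value cannot show that part. Krt15 was at 5636 and 4478 CPM on the plates of P758, against 11365, 17893 and 8291 on those of P60, a log2 ratio of -1.22 that was -0.89 with wells thinned to 500 counts. Krt5 was closer, at 17152 and 20457 CPM against 16836, 14724 and 11765, a log2 ratio of 0.38. Col17a1 was at 10495 and 7200 CPM against 5535, 5554 and 6137, a log2 ratio of 0.60. In Igfbp3-high wells the log2 ratio was 0.50 for Krt14, -0.89 for Krt15, -0.07 for Krt5 and 0.15 for Col17a1. Whether the age difference differed between these classes was not tested, as each had 1 animal per age with enough wells.

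Apoe was at 8795 and 17823 CPM on the plates of P758, against 32933, 20316 and 18829 on those of P60, a log2 ratio of -0.88. It was -0.95 without the Akr1c18 wells, -0.42 with wells thinned to 500 counts and 0.02 in Igfbp3-high wells. The size of the difference thus changed with the depth taken per well and with the well class. Single deep wells weighed on these sums. On Young1 such wells held 543, 393 and 303 of the 1559 Apoe counts, and on Old4 1 well held 202 of 406. The median well ran the other way, at 0.50% of counts in P758 and 0.436% in P60. So did the sums of the 2 animals with 4 wells each. Apoe was at 24064 CPM in P662 (old, 36 counts) and 15439 CPM in P59 (young, 22 counts).

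The genes higher in P758 by the largest ratio were led by Krt6a, a keratin of wounded and follicular epithelium, with 56 counts in P758 and 1 in P60. A single P758 well gave 48 of the 56 counts, in which Krt15 was at 0 and Krt5 had 66 counts. Plekhg4 was at 3255 and 659 CPM on the plates of P758, against 697, 186 and 185 on those of P60. These plates overlapped, and the log2 ratio was 2.21. Vav1, a Rac exchange factor known from blood cells, was at 1798 and 966 CPM against 676, 373 and 301, a log2 ratio of 1.5. Here the plates did not overlap, and Vav1 was counted in 35 of 55 wells of P758 and 35 of 73 of P60, with at most 5 counts in a well. The log2 ratio of Vav1 was 0.91 with wells thinned to 500 counts. Plekhg4 and Vav1 had log2 ratios of 1.93 and 1.72 in Igfbp3-high wells.

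Metallothionein 1 (Mt1), a metal-binding stress protein, was at 729 and 1054 CPM in P758 plates, against 296, 224 and 371 in P60 plates, a log2 ratio of 1.49 that was 0.98 with wells thinned to 500 counts. Beta-actin (Actb) was at 2478 and 4478 CPM against 1901, 1193 and 973, a log2 ratio of 1.32 that was 0.90 with wells thinned to 500 counts. Eif2a, a translation initiation factor, was at 3498 and 1668 CPM against 1289, 1156 and 625, a log2 ratio of 1.31. Heca, the homolog of the fly headcase gene, had a log2 ratio of 1.43, the deubiquitinase Usp24 1.30, and the actin-binding Tmsb4x 1.22; thinned, they were 1.15, 0.98 and 1.41. Dusp1, an immediate early phosphatase that the gate did not use, was at 875 and 659 CPM against 296, 37.3 and 486, a log2 ratio of 1.26 that was 0.55 with wells thinned to 500 counts.

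Among the genes lower in P758, the adhesion receptor Adgrl2 was at 292 and 220 CPM on the plates of P758, against 782, 1193 and 486 on those of P60, a log2 ratio of -1.52. The amyloid precursor protein gene App was at 923 and 878 CPM against 2345, 3355 and 1320, a log2 ratio of -1.27. Plates did not overlap for either gene. App was -0.60 with wells thinned to 500 counts. Sciellin (Scel), a precursor of the cornified envelope, was at 389 and 483 CPM against 1225, 1491 and 533, a log2 ratio of -1.20. Hadha, a mitochondrial fatty acid oxidation enzyme, catalase (Cat), Psap, the precursor of saposins, and Acsl4 had log2 ratios of -1.20, -1.18, -1.15 and -1.20, which were -0.57, -1.27, -1.25 and -0.71 with wells thinned to 500 counts. Cystatin C (Cst3) was at -1.06, but at -0.10 with wells thinned to 500 counts. Tubb5, a tubulin, was at -1.03.

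**Figure D5:**
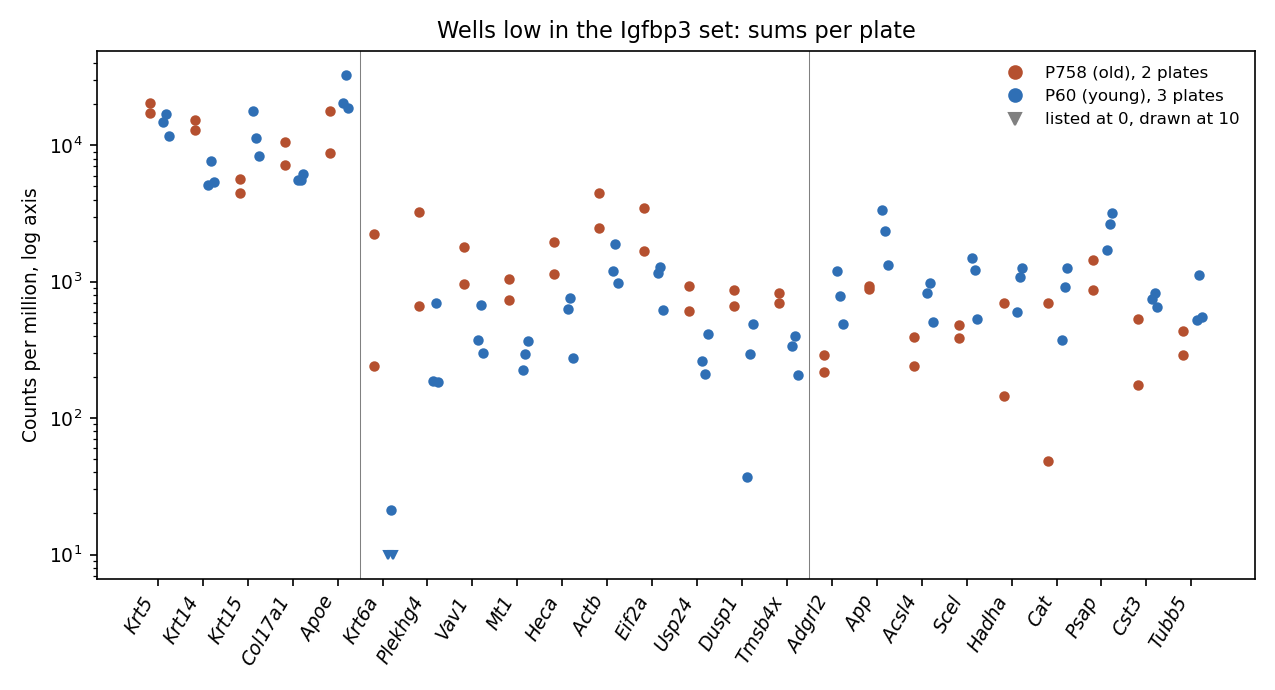
CPM on a log axis per plate, for the 4 basal markers and Apoe (left), the 10 genes with the largest ratio above 2-fold in P758 (middle) and those below (right, Krt15 being at the left). Points are sums per plate, P758 (old) left of P60 (young) for each gene; triangles are plates at 0. Krt14 and Krt15 do not overlap between the animals and run in opposite directions.

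The gene lists are read beside the 6.16% higher and 4.74% lower over all genes compared. Of the 7 hemidesmosome and laminin-332 genes compared, 0 were 2-fold apart, with a median log2 ratio of 0.21. The 8 desmosome genes had 0 and a median of 0.22. The 6 genes of MHC class I antigen presentation had 0, and all 6 ratios were negative, with a median of -0.20. The 5 mitochondrially encoded genes had 0 and a median of -0.11, and the 6 translation factors had 0 and a median of 0.01. Of the 8 actin cytoskeleton genes, 1 (Actb) was past 2-fold, with a median of 0.33. Of 3 integrin and basement membrane genes, 1 was past 2-fold. This was Col7a1, the collagen of anchoring fibrils, at 2138 and 878 CPM on the plates of P758 against 317, 708 and 950 on those of P60, and the plates overlapped. Nuclear oxidative phosphorylation had 2 genes compared, both ATP synthase subunits. Atp5b was at 1061 CPM in P758 and 1781 in P60, and Atp5a1 at 853 and 1423. In lists with 1 or 2 genes compared, the immediate early genes outside the gate had 1 of 1 higher (Dusp1), and metallothionein and antioxidant genes had 1 higher (Mt1) and 1 lower (Cat) of 2. S phase and mitosis had 1 lower (Tubb5) of 2, the upper follicle 1 higher (Krt6a) of 2, and the basal keratins 1 lower (Krt15) of 1. Over all genes compared the median was -0.02, and these medians describe 1 animal of each age.

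A test over all animals with any such well was an alternative. edgeR's quasi-likelihood test over P662, P722 and P758 against P59 and P60 had 8 genes with enough counts, and called 0 (0%) at a Benjamini-Hochberg adjusted p of 0.05. The lowest adjusted p was 0.832, and 0 genes were under an unadjusted p of 0.05. DESeq2 called 0 as well, with 0 at an unadjusted p of 0.05. In this edgeR fit the log2 ratio was -0.99 ± 0.64 (SE) for Krt15 and -0.36 ± 0.70 for Krt14 (adjusted p = 0.832 for both), so that Krt14 had the opposite sign to the comparison of P758 with P60. The 4 wells of P59 held 32 counts of Krt14, or 22456 CPM, the highest of any of the 4 animals with at least 4 wells. A single P59 well of 711 counts, which was among the Akr1c18 wells, gave 15 of the 32. Krt15 was at 8021 CPM in P662 (12 counts) and 4912 CPM in P59 (7 counts), the opposite order to P758 and P60.

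Without P722, whose 1 well had 133 counts, edgeR tested 428 genes over P662 and P758 against P59 and P60 and called 0 (0%). The lowest adjusted p was 0.991, with 9 genes at an unadjusted p under 0.05. The 5 with the smallest p, of which 4 are given here, had at most 3 counts each in P662 and in P59. Sbno2, a transcriptional coregulator, had 1 and 22 counts in P662 and P758 against 0 and 16 in P59 and P60, with a log2 ratio of 1.88 ± 0.57 (SE, edgeR adjusted p = 0.991). Plin2, a lipid droplet coat protein, had 0 and 7 counts against 2 and 65. Diaph1, an actin nucleator, had 1 and 19 counts against 1 and 24, and Tubb5 had 1 and 16 against 3 and 91.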

How the data were processed

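Footprint counts per gene and well were deposited by the authors as raw counts; per the submitters' processing notes, GRCm38.p6 was the build, and featureCounts, STAR, UMI-tools, Bowtie2 and fastp were used. Tool versions and settings are not stated there. Of 22416 symbols, 21754 matched the GRCm38.p6 gene table. The 10 old and young plates held 1924 wells; those with at least 100 counts were kept, and no doublet caller was run, as single cells were sorted into wells. Counts were summed per animal and well class. Wells and gene lists were chosen with earlier results of these data known. P758 and P60 were compared as CPM with a pseudocount of 20. Animals were tested with edgeR 4.0.16 (TMM, robust quasi-likelihood with deviances adjusted for small counts, chosen because the default made calls in simulated counts with no change), with DESeq2 1.42.0 and limma 3.58.1 as alternatives, in R 4.3.3. Shares were compared by exact permutation in scipy 1.17.1. Scripts were tested on simulated data. Named genes are those of the gate, the 5 smallest p between ages, the 8 highest and lowest against each class, the 12 most variable, and the leading genes of each list; a part of the rule that ranked levels per coding length was not used here. The class ranking was planned over P662, P758 and P60, but P662 held 1496 counts in 4 wells, so P758 and P60 alone were used. Of the 48 genes so named, 22 are also named with P662 in. These were 3 of 16 against Igfbp3-high wells, 6 of 16 against transitional wells and 13 of 16 against spinous wells. The 10 largest ratios each way between P758 and P60, named because the planned test had 1 animal per age, and the genes of the Akr1c18 wells were chosen after their values were seen. Some genes that the rules name are not reported here.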

Additional observations from a re-analysis of the deposited data

How the results depend on the processing

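The count of 23 genes at least 2-fold apart between P758 and P60 stayed within 1.5 times under 11 of 17 alternatives, though not the genes: 10 of the 23 were among the 21 with wells thinned to 500 counts, and 10 among the 29 without plate Old2. It was 3166 of 11102 genes with no filter beyond 1 count, 1956 of 7662 with a mean of at least 20 CPM, 58 with at least 20 keratin counts, 14 with a keratin ratio under 0.2 and 7 when the Igfbp3 set limit was not applied. Chosen after seeing the data, leaving out plate Old4 gave 46, of which 18 were among the 23, and leaving out the Akr1c18 wells gave 18. With TMM factors 11 genes were higher and 19 lower, against 13 and 10. No animal could be left out there, and neither age interaction with well class had 2 animals per age, so these gave no value. edgeR's count of 0 called genes became 12, all lower in old mice, with at least 20 keratin counts, where P758 stood against P60 and P59, and P59 had 1 count of each gene. Leaving out each animal in turn gave 0 to 1; without P662, Krt6a was called, with 48 of its 56 P758 counts in 1 well. The share of wells differed by -0.787 percentage points between old and young mice. This was 1.48 with the immediate early limit not applied, -9.42 in wells with at least 500 counts, -7.23 with the Igfbp3 set limit not applied, and -3.42 to 0.750 over leaving out each animal (0.444 without P662, 0.133 without P722, 0.750 without P59, 0.305 without P60), with exact permutation p of 0.5 or more throughout. No paired analysis was possible because old and young plates share no replicate number. Depth limits the animals other than P758 and P60, where 1 count is 668 CPM or more. The cause of these changes was not tested.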
